A study of Mus musculus with 2 samples.

Results

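Open chromatin was described at 9 mouse genes of the Wnt pathway: the 4 TCF/LEF transcription factor genes Lef1, Tcf7, Tcf7l1 and Tcf7l2, the feedback inhibitor genes Axin2, Nkd1 and Dact3, and the zinc finger factor genes Sp5 and Sp8. The genes were chosen by name, with earlier results of these data known. All 9 were found among the 21938 protein-coding genes of the annotation. In canonical Wnt signalling, a Wnt ligand stops the destruction of β-catenin, which then enters the nucleus and joins TCF/LEF factors bound to DNA at a short core, CTTTGAT or CTTTGAA. Axin2 is a scaffold of the complex that destroys β-catenin and is itself switched on by the pathway, and Nkd1 and Dact3 bind Dishevelled, the protein that passes the signal on from the receptor. Sp5 and Sp8 bind GC-rich DNA and are known as Wnt-dependent genes of the early embryo, and in the hindbrain Wnt ligands come from the roof plate and from the border with the midbrain.

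DNase-seq maps open chromatin by sequencing the ends that the nuclease DNase I leaves where it cuts accessible DNA in nuclei. The data were 2 libraries, biological replicates 1 and 2 of 1 group: hindbrain of healthy embryos of the strain B6NCrl at embryonic day 11.5, males and females pooled, with no treatment or engineered allele named in the labels. Peaks, all 150 bp wide and each with a height, and hotspots, the broader regions of raised cutting, had been called separately for either library. Replicate 1 had 150176 peaks after filtering, with a median height of 36, and replicate 2 had 194873, with a median height of 50. Heights may not be on 1 scale in both, so they are given per library, and ranks as the percentage of that library's peaks that were lower. With 2 samples of 1 group no test across samples was possible, and all comparisons below are descriptions. In whole tissue, an opening in fewer cells and a lower opening in each cell cannot be told apart.

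The tissue label was checked by promoter state. Of 4 hindbrain marker genes, 2 (Egr2 and Lhx5) had a promoter site in both libraries, as did 3 of 3 neural progenitor genes; over all protein-coding genes 65.9% had one, so these few genes give only a weak check of the label. Hoxa2 and Hoxb2, which pattern the hindbrain, did not have one in both libraries. Neither had a promoter peak in replicate 1, and their highest promoter peaks in replicate 2 had heights 116 and 102. In all, Hoxa2 had 1 peak in replicate 1 and 15 in replicate 2, and Hoxb2 had 6 and 19. Among genes of other tissues, 2 of 3 forebrain genes and 2 of 2 mesenchyme genes had a promoter site in both libraries. Of the 6 genes of blood, vessel and myeloid cells, 0 had one.

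The sequences below are 9 open sites that carry TCF/LEF cores. They were chosen from the highest or most core-rich of the core-bearing sites of their genes that touch no annotated exon. They are the central 150 bp of sites open in both libraries, plus strand of mm10, 5′ to 3′, read from the RefSeq copy of the reference. Capitals mark CTTTGAT or CTTTGAA, or, where the core lies on the minus strand, its reverse complement ATCAAAG or TTCAAAG. None of these windows touches an annotated exon.
Nkd1 promoter, chr8:88521156-88521305: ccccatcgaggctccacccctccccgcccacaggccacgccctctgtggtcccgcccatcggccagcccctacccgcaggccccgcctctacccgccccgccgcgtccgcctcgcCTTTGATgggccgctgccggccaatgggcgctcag
Nkd1 upstream, chr8:88454166-88454315: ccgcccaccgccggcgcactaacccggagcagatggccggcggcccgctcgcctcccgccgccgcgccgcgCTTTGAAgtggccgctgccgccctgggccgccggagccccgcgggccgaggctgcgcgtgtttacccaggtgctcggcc
Nkd1 upstream with 2 cores, chr8:88495246-88495395: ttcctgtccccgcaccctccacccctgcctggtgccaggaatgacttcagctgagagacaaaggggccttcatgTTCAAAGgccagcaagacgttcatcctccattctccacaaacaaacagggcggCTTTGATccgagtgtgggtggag
Nkd1 upstream, chr8:88512436-88512585: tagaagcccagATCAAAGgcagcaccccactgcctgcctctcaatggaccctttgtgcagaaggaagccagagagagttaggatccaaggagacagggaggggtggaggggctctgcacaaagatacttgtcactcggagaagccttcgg
Axin2 intron, chr11:108935436-108935585: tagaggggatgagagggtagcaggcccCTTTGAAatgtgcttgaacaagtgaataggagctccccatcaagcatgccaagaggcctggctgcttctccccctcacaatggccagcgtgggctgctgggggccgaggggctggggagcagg
Lef1 upstream, chr3:131106056-131106205: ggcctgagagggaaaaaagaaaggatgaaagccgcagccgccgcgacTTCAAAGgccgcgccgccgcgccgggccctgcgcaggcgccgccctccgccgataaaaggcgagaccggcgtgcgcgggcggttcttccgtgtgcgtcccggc
Tcf7 promoter, chr11:52283326-52283475: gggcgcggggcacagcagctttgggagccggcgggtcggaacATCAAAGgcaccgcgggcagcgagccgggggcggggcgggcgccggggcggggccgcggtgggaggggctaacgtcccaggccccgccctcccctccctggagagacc
Sp5 upstream with 2 cores, chr2:70472196-70472345: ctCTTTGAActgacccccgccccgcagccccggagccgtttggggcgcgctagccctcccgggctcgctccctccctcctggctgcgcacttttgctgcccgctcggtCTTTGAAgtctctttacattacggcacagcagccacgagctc
Sp8 promoter, chr12:118847066-118847215: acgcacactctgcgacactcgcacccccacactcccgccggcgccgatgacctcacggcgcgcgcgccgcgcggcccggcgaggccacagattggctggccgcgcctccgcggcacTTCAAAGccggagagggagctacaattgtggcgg

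All 9 genes had an open promoter in both libraries. A site is a run of overlapping peaks, and it counts as shared when it holds a peak of each library; a promoter site lies within 1 kb of a protein-coding start. Such a shared promoter site was found at 9 of 9 genes, against 65.9% of all protein-coding genes. Sites further out were assigned to each gene they lie in (body). They were also assigned to the gene with the nearest start within 100 kb if they lay outside that gene (distal). A distal site can thus lie inside another gene, as the highest one of Dact3 does inside Prkd2. Below, the highest site of a gene or class is the shared site with the highest mean rank over both libraries, and pairs of heights are those of replicate 1 and replicate 2. In this way the 9 genes received 366 sites, of which 153 were shared: 32 at promoters, 63 in gene bodies and 58 distal. Another 72 sites were found in replicate 1 alone and 141 in replicate 2 alone. The shared part was 41.8% of the sites of the 9 genes (95% exact Clopper-Pearson interval 36.7 to 47.0%, counting error only), against 42.3% of all 231068 sites. Taken alone, the list of replicate 1 gave 227 sites at the 9 genes and that of replicate 2 gave 294.

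The 9 genes lay in regions rich in open sites. They had a median of 18 shared sites, against a median of 3 over all genes, and 6 of the 9 had at least 15, against 4.71% of all genes. That number of genes depended on the settings: 4 reached 15 when starts of any gene type were used to find the nearest gene (Nkd1 had 14 and Sp5 12), and 3 did without peaks in hotspots of over 2 kb, where Lef1 had 15. Sp5 had 8 shared sites with an overlap of at least 75 bp. The share of all genes with at least 15 was not computed under these settings. Lef1 and Axin2 had 26 shared sites each, Tcf7l2 had 25, Tcf7l1 and Nkd1 had 18 each and Sp5 had 15. Tcf7 with 10, Sp8 with 9 and Dact3 with 6 stood at the lower end, and Dact3 also has the shortest stretch of DNA nearest to it, 28.3 kb. The stretch assigned to a gene was long for most of the 9, with a median of 168 kb against 53.5 kb over all genes. Per 100 kb of that stretch, body and distal shared sites numbered a median of 8.88 for the 9 genes, against 2.49 over all genes. On this scale Dact3 came first with 17.7, before Tcf7 with 11.5 and Axin2 with 10.8, and Tcf7l2 with 5.37 and Sp8 with 5.0 came last. The order by number and the order by density thus differ: Dact3 had the fewest sites and the densest ones. Dact3 had 4 shared sites in place of 6 with starts of the full GENCODE set. It also had 4 with starts of any gene type used to find the nearest gene. Densities were not recomputed under those settings.

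**Figure D1:**
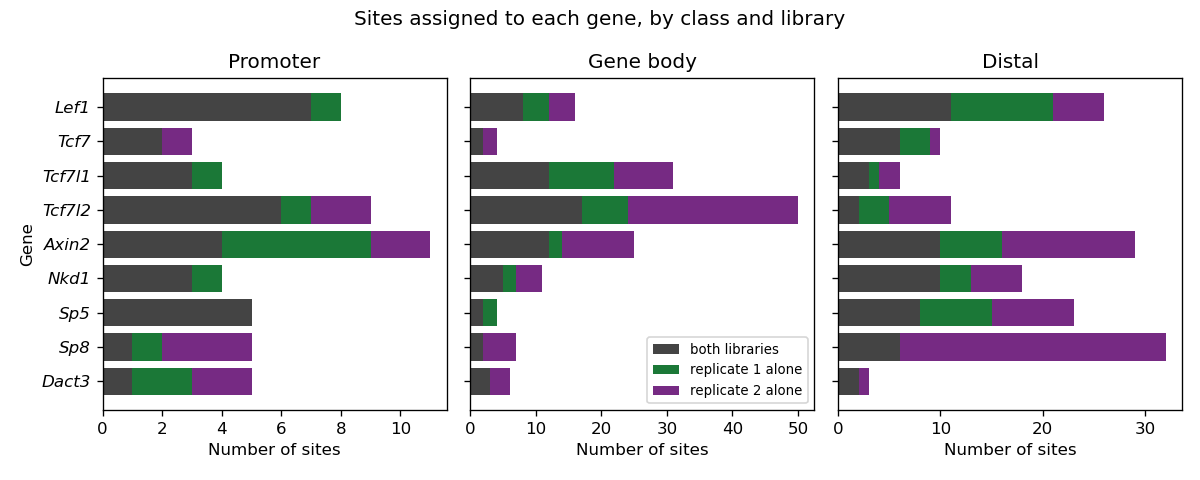
Number of sites (horizontal axis) assigned to each of the 9 genes as promoter, gene-body or distal sites; bar segments are sites found in both libraries, in replicate 1 alone and in replicate 2 alone. Gene-body sites are most numerous at Tcf7l2, and the distal bar of Sp8 consists mostly of sites found in replicate 2 alone (26 of 32, with 6 in both libraries).

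The heights of these promoters were close to those of other open promoters. The highest promoter peak of the 9 genes ranged from 85 to 128 in replicate 1, with a median of 94, where the median over the 14717 genes with a promoter peak was 100. In replicate 2 it ranged from 105 to 142 with a median of 125, where the median over 15243 genes was 126. In each library 4 of the 9 genes stood above the median gene, and the feedback inhibitor genes led in both: Dact3 (128 and 142 in replicates 1 and 2), Nkd1 (124 and 137) and Axin2 (117 and 142). Lef1 (86 and 117), Tcf7 (87 and 117), Sp5 (87 and 105) and Sp8 (85 and 121) lay below it in both. CpG content varied as well: the ratio of observed to expected CpG within 500 bp of the start, at the start where it was highest, was between 0.587 at Sp8 and 0.963 at Tcf7l2, against a median of 0.606 over all genes.

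**Figure D2:**
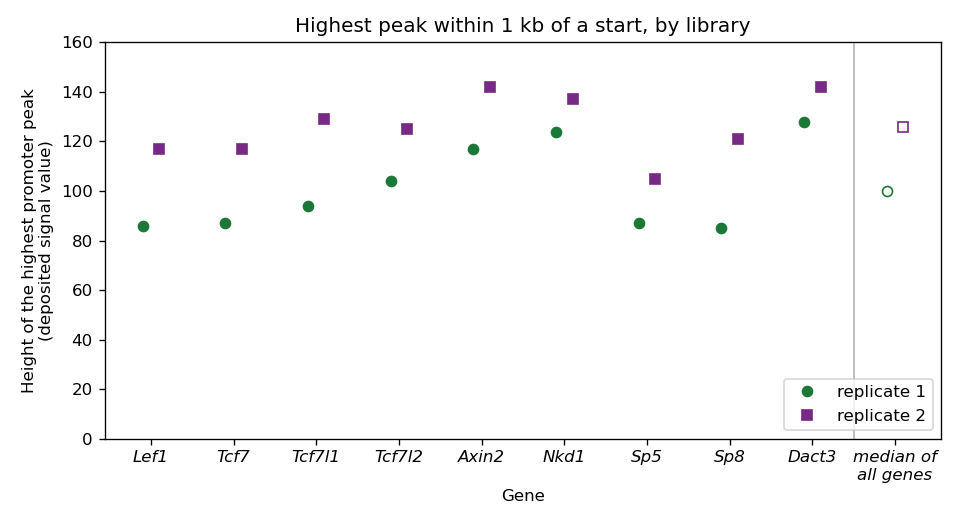
Height of the highest peak within 1 kb of a start (vertical axis, deposited signal value) for each gene in replicate 1 (circles) and replicate 2 (squares), with the median over all genes with a promoter peak at the right (open symbols). Dact3, Nkd1 and Axin2 stand above the median gene in both libraries, and Lef1, Tcf7, Sp5 and Sp8 below it in both.

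Lef1 (chr3:131110471-131224356, plus strand), which encodes a TCF/LEF factor that acts mainly as an activator with β-catenin, had the most shared promoter sites of the 9. These 7 sites had heights from 37 to 86 in replicate 1 and from 71 to 117 in replicate 2. They lay in 1 hotspot of 2504 bp in replicate 1 and 4735 bp in replicate 2, apart from 1 site that had a separate hotspot in replicate 1. Outside the promoter the highest site was 4.34 kb upstream of the first start, with heights 94 and 132, above any promoter peak of Lef1 in either library. That upstream site is GC-rich (71.3% G or C in its central 150 bp), lies in hotspots of 2450 and 3017 bp, and has no coding or noncoding annotated start within 1 kb. Among body sites, those inside the gene and over 1 kb from any protein-coding start, the highest (69 and 97) lay 26.8 kb past the first start. That body site overlaps an annotated exon and lies within 1 kb of a start of Gm42449, a gene not annotated as protein-coding.

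Tcf7 (chr11:52252371-52283014, minus strand), the gene of TCF1, had 2 shared promoter sites. The higher, centred 0.387 kb upstream of the start, had heights 87 and 117, and the site over the start itself had 47 and 86. Its 6 distal shared sites all lay upstream, the highest of them (64 and 102) with its near edge 14462 bp away. Tcf7 had the largest share of sites found in both libraries, 10 of 17 (58.8%).

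Tcf7l1 (chr6:72626378-72789254, minus strand), whose product acts mainly as a repressor of Wnt targets, had 3 shared promoter sites with heights of up to 94 and 129. Most of its other shared sites lay inside the gene, 12 of 15. The highest of these, 58247 bp from the nearest start, reached 99 and 116, above the highest promoter peak in replicate 1 and below it in replicate 2.

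Tcf7l2 (chr19:55741820-55933654, plus strand), whose product can activate or repress Wnt targets, has the longest span of the 9 and the most gene-body sites, 17 in both libraries, 7 in replicate 1 alone and 26 in replicate 2 alone. It had 6 shared promoter sites, 3 at the first cluster of starts and 3 at an internal start. The highest, over the first start, had heights 104 and 125, and the site over the internal start had 91 and 122. The highest gene-body site (81 and 118) lay in front of an internal start, 17665 bp from it. Only 2 distal sites were shared, of middling height (41 and 55 for the higher).

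Axin2 (chr11:108920349-108950783, plus strand) had the highest shared promoter site of the 9 in replicate 2: the site over its first start had heights 117 and 142, above 98.4% and 99.8% of the peaks of the libraries. The next promoter sites downstream had heights 111 and 128, and 85 and 113. Away from the promoter, 12 body and 10 distal sites were shared. The highest distal one, 29.1 kb upstream, had heights 100 and 97, so it ranked above 94.5% of peaks in replicate 1 and above 85.7% in replicate 2.

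Nkd1 (chr8:88521354-88594884, plus strand) had a single high promoter site, printed above, with heights 124 and 137. The other 2 shared promoter sites were low in replicate 1, with 39 and 30, and had 54 and 94 in replicate 2. A pair of far sites was nearly as high as the promoter. The site 67.1 kb upstream, also printed above, had heights 98 and 128, and that with its edge 21371 bp past the last start had 97 and 134. The highest of its body sites, which exclude sites within 1 kb of a protein-coding start, had 37 and 63.

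Dact3 (chr7:16875317-16887462, plus strand) had the highest promoter peak of the 9 in replicate 1, and shared the highest with Axin2 in replicate 2, but at adjacent positions. The peak of height 128 in replicate 1 covered chr7:16874956-16875105 and the peak of height 142 in replicate 2 covered chr7:16875136-16875285. With 30 bp between them they did not overlap and each counted as a site of 1 library alone. When peaks with gaps of up to 50 bp were joined, an alternative added after the data were seen, they formed 1 shared site and Dact3 had 7 shared sites in place of 6. Its only shared promoter site as defined here had heights 87 and 109 and lay 832 bp upstream. Inside the gene, the highest shared site reached 89 and 125.

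Sp5 (chr2:70474923-70477729, plus strand), a gene of under 3 kb, was open along its length and for some way upstream. All 5 of its promoter sites were shared, with heights from 25 to 87 in replicate 1 and from 66 to 105 in replicate 2, and its gene body added 2 shared sites, the higher with 82 and 107. In replicate 2 a hotspot of 3861 bp covered 4 of the promoter sites and sites upstream of them; in replicate 1 the promoter hotspot was 1570 bp wide. Among the 8 shared distal sites the highest (55 and 89), which holds 2 cores and is printed above, lay 2.65 kb upstream.

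Sp8 (chr12:118846329-118852576, plus strand) was the gene at which the libraries differed most in number of peaks. It had 12 peaks in replicate 1 and 45 in replicate 2, a ratio of 3.75, against a median ratio of 1.3 over the 5423 genes with at least 20 peaks. A ratio of 3.75 or more was found at 93 of those genes. Within 12 kb of the start lay 36 sites, 7 in both libraries, 1 in replicate 1 alone and 28 in replicate 2 alone. The sites in replicate 2 alone were not all low: over the 34 assigned to Sp8 the median height was 54.5, the highest had 106, and 20 were above the median of their library. The highest sites of Sp8, taken among shared sites, stood above the highest site of either library alone (45 in replicate 1, 106 in replicate 2). The distal site 8.96 kb past the start had heights 111 and 127, and the promoter site, printed above, had 85 and 121. That promoter site lies 727 bp from the start; within 500 bp of it the highest peaks had heights 45 and 68 and did not overlap. Hotspots covered 2.96 kb of the stretch of Sp8 in replicate 1 and 20.4 kb in replicate 2.

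The other 8 genes had ratios of peaks, replicate 2 over replicate 1, between 0.814 and 1.63. Lef1 was at the low end, with 43 peaks in replicate 1 and 35 in replicate 2, and 7.19% of the genes with enough peaks had a lower ratio. Within 12 kb of its first start, Lef1 had 12 sites in both libraries and 4 in each library alone. Some patterning genes moved in the same direction as Sp8: Hoxa2 and Hoxb2 (given above), Lhx5 with 17 peaks in replicate 1 and 43 in replicate 2, and Dlx5, a forebrain gene, with 8 and 22. Summed over the 4 hindbrain markers, peaks numbered 39 in replicate 1 and 97 in replicate 2, with single-gene ratios from 1.33 to 15. Over the 3 neural progenitor markers the sums were 155 and 163, over the 3 forebrain markers 58 and 77, and over the 2 mesenchyme markers 50 and 55. The 6 genes of blood, vessel and myeloid cells had few peaks: 1 and 2 over the erythroid pair, 14 and 21 over the endothelial pair, and 5 and 4 over the myeloid pair. The 13 Wnt ligand genes examined, a partial list of the family, went both ways. Their ratios ran from 0.80 at Wnt11 (35 and 28) to 3.75 at Wnt10b (4 and 15). Wnt10b has fewer than the 20 peaks asked of the genes in the ratio comparison above. The part of these marker differences in the values of Sp8 was not tested.

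**Figure D3:**
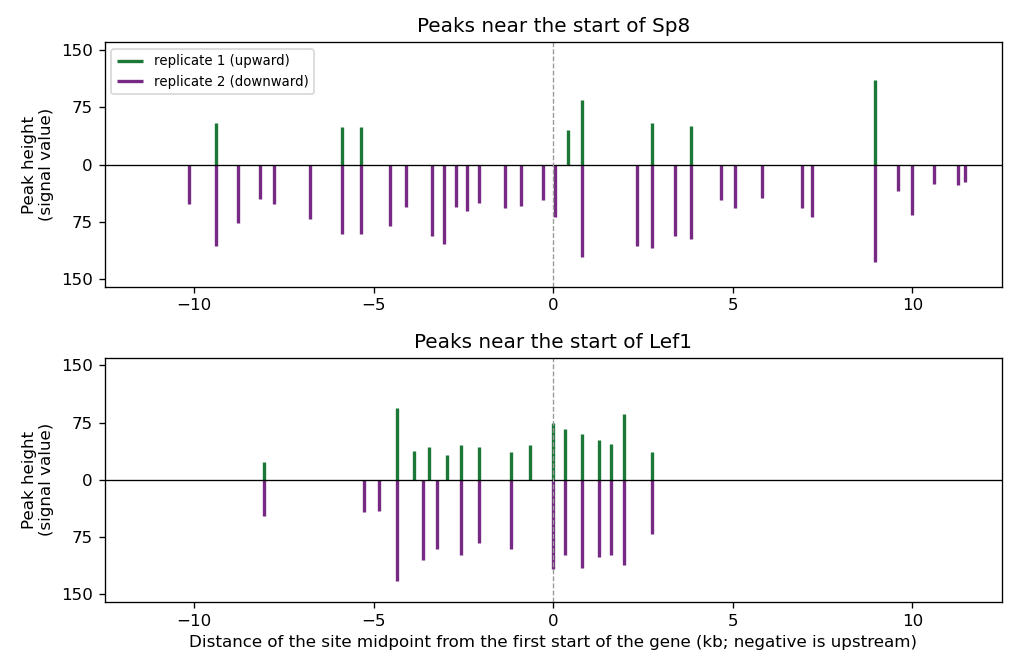
Peak heights (vertical axis, deposited signal value; replicate 1 upward, replicate 2 downward) of the sites of Sp8 and Lef1 within 12 kb of the first start, by distance of the site midpoint (kb). At Sp8, 28 of 36 sites have a peak in replicate 2 alone, while at Lef1 12 of 20 sites have a peak in both libraries.

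Where both libraries had a site, their heights ranked alike. Over the 146 sites of the 9 genes formed by 1 peak of each library, Spearman's rho between the heights was 0.80, against 0.84 over 91962 such sites in all. These are sites of 1 pair of libraries, so rho is given as a description. Replicate 2 had the higher value at 140 of the 146 sites, with a median ratio of 1.46, against 1.43 over all sites. The height gap at these genes was thus that of the libraries as wholes.

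Promoter hotspots of the 9 genes were all over 2 kb wide in replicate 2, while in replicate 1 they ranged from 366 bp to 2552 bp. In replicate 1, the promoter hotspot was over 2 kb wide at 3 of the 9 genes (Axin2 with 2552 bp, Lef1 with 2504 bp and Tcf7l2 with 2126 bp), against 4.0% of all genes. In replicate 2 it was over 2 kb at 9 of 9, from 2196 bp at Nkd1 to 4735 bp at Lef1, against 21.5% of all genes. The shares of 4.0% and 21.5% count genes without a promoter peak as well. The step was steepest at Sp8, whose promoter hotspot was 366 bp in replicate 1 and 3780 bp in replicate 2. Axin2 changed least, with 2552 and 2657 bp. The deposited hotspot strength, −log10 of a false discovery rate, was at its top value of 100 for 58 of 201 hotspots of the 9 genes in replicate 1 (28.9%) and 70 of 216 in replicate 2 (32.4%), against 36.4% and 35.3% of all hotspots in these libraries.

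TCF/LEF cores were frequent in the open sites of these genes. CTTTGAT or CTTTGAA, on either strand of the central 150 bp, was present in 24 of the 153 shared sites (15.7%, exact 95% interval 10.3 to 22.4%), against 5.15% of all 97657 shared sites. Without replicate 1, over all sites of replicate 2, the share was 10.2% (30 of 294), against 5.15%, and without replicate 2 it was 15% (34 of 227), against 6.03%. At promoters it was in 8 of 32 sites (25%, 11.5 to 43.4%), against 2.66% of all shared promoter sites. In body and distal sites it was in 16 of 121 (13.2%, 7.75 to 20.6%), against 6.07%. Of the 24 sites 4 held 2 cores. Sites of these genes in 1 library alone held a core in 16 of 213 (7.51%). The share over all sites of 1 library alone was not computed, so this value has no comparison. A match is a description of the letters and not evidence that a factor was bound, and sites of 1 gene are neighbours, not independent observations; intervals cover counting error only.

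The cores were unevenly spread over the 9 genes: Nkd1 and Axin2 held 15 of the 24 core-bearing sites, and the other 7 genes had cores in 9 of 109 shared sites (8.26%, 3.85 to 15.1%). Nkd1 had them in 8 of 18 shared sites (44.4%, 21.5 to 69.2%) and Axin2 in 7 of 26 (26.9%, 11.6 to 47.8%). Among the 1033 genes with at least 15 shared sites, where the median share was 5.56% and the upper quartile 8.70%, Nkd1 had the highest share and Axin2 the fifth. With a distal limit of 50 kb, or with starts of any gene type, Nkd1 had 14 shared sites, under the 15 needed for this rank. Core shares were not recomputed under those settings. Only 3 genes of the genome had 8 or more core-bearing shared sites, and besides Nkd1 they were Fgfr2, with 11 of 166, and a gene model with 13 of 350. Lef1 had cores in 3 of 26 sites, Tcf7 in 2 of 10, Sp5 in 2 of 15 and Sp8 in 2 of 9. Tcf7l1, Tcf7l2 and Dact3 had none in 18, 25 and 6 shared sites, 0 of 49 together. A count of 0 allows a share of up to 6.12% when taken as 3 counts, and the exact interval reaches 7.25%; both lie above the 5.15% of all sites. Sites of 1 library alone did hold cores at Tcf7l1 (2 of 23) and Tcf7l2 (4 of 45), and at Dact3 in 0 of 8. The share over all sites of 1 library alone, for comparison, was not computed.

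**Figure D4:**
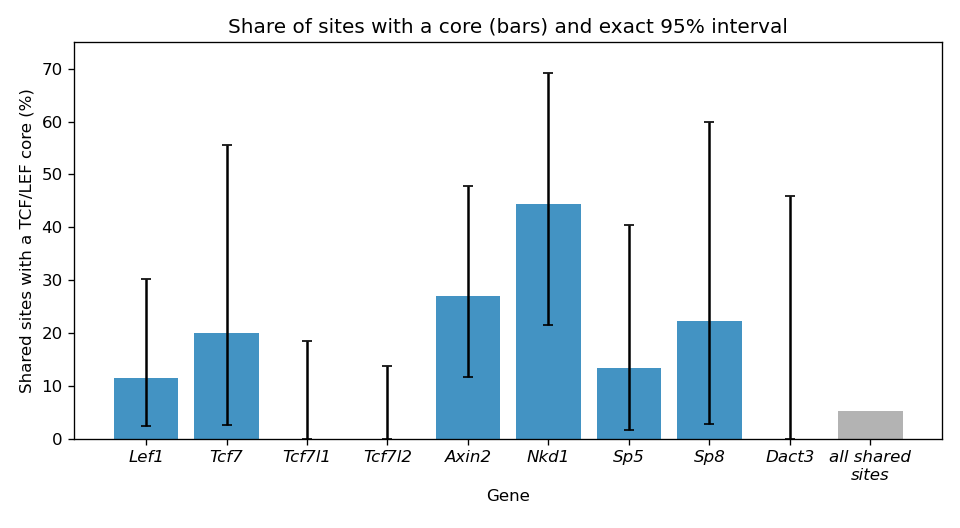
Percentage of shared sites with a TCF/LEF core in their central 150 bp (vertical axis) for each gene (bars, with exact 95% intervals that cover counting error only) and over all shared sites of the genome (right bar, 5.15%). The intervals of Nkd1 and Axin2 lie above the share over all sites, and Tcf7l1, Tcf7l2 and Dact3 are at 0.

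At Nkd1 the core-bearing sites ran over a wide stretch, from 70.2 kb upstream to 49.5 kb downstream of the first start, and 6 of them were among its 9 shared upstream sites. They included its highest site, the promoter, where a CTTTGAT core lies within 100 bp of the start. The site 67.1 kb upstream has its CTTTGAA core at its exact centre and is 80.0% G or C, and the site 26.0 kb upstream has both core forms on opposite strands. That last site had heights 41 and 65, and the remaining core-bearing sites of Nkd1 had heights from 37 to 57 in replicate 1 and from 53 to 83 in replicate 2.

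At Axin2 the pattern was the reverse: all 7 core-bearing shared sites lay downstream of the first start, among 17 shared sites there, and 0 of its 9 upstream shared sites had a core. The first 3 were promoter sites centred 0.452, 0.841 and 2.79 kb past the first start, with heights 111 and 128, 85 and 113, and 54 and 79. The middle one held 2 cores, CTTTGAT and CTTTGAA, on the plus strand. The next lay 8.01, 15.2 and 27.3 kb past the start inside the gene, and the last 41.6 kb past it, beyond the end of the gene. The highest of these 4, at 15.2 kb, had heights 83 and 82 and is printed above.

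**Figure D5:**
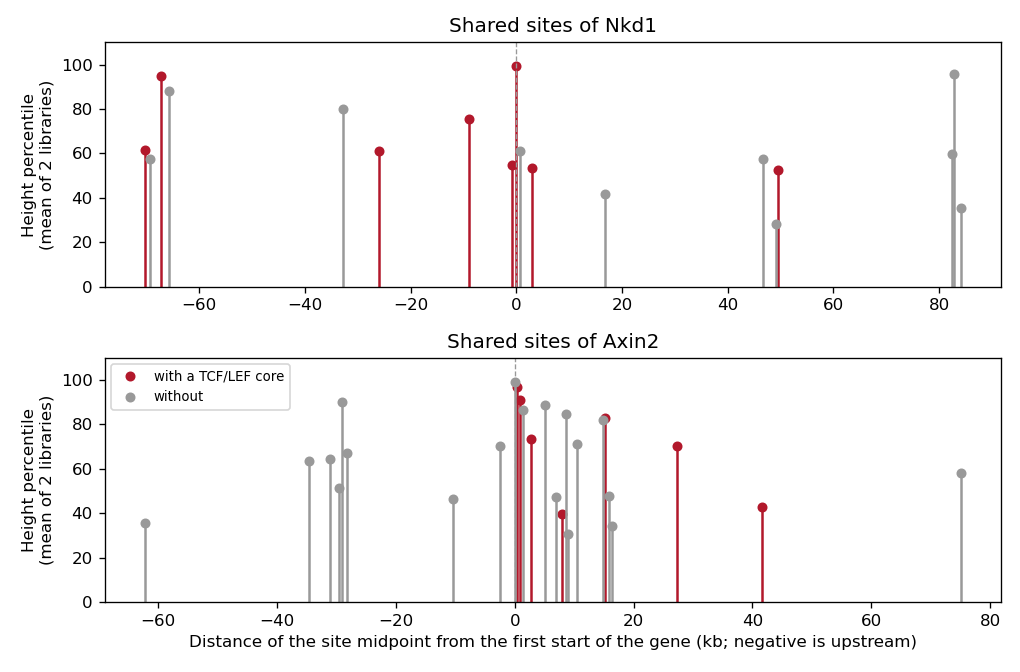
Shared sites of Nkd1 and Axin2 by distance of the site midpoint from the first start (kb, negative is upstream) and by height percentile (mean of both libraries); red marks sites with a TCF/LEF core. At Nkd1 6 of 8 core-bearing sites lie upstream, and at Axin2 7 of 7 lie downstream.

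Of the TCF/LEF genes, Lef1 and Tcf7 had cores in shared sites. Lef1 had them 4.34 and 2.06 kb upstream, the first being its highest upstream site, and 26.8 kb downstream, where 2 cores lay close together. Tcf7 had them 0.387 and 1.43 kb upstream, and the first of these is its highest promoter site. Sp8 likewise had a core in its highest promoter site and another in a body site 3.83 kb past the start with heights 50 and 97. At Sp5 both cores of the upstream site were CTTTGAA on the plus strand, and another was in the low promoter site 0.828 kb past the start (34 and 66). Promoter sites with a core had median heights of 85 and 115 in replicates 1 and 2 (n = 8), against 62.5 and 105 without (n = 24), and the ranges overlapped: 34 to 124 with a core and 25 to 117 without in replicate 1, 54 to 137 and 57 to 142 in replicate 2. Body and distal sites with a core had medians of 48 and 81 (n = 16), against 44 and 71 without (n = 105).

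Other short motifs were searched in the same windows for comparison. CTTTGTT, a SOX-type word close to the TCF/LEF cores, was in 5 of 153 shared sites of the 9 genes (3.27%), against 4.69% of all shared sites, and the SOX-type ACAATGG was also in 5 (3.27%), against 2.81%. The homeobox word TAATTA was in 2 (1.31%), against 2.34%, and the AP-1 word TGANTCA in 5 (3.27%), against 3.79%. The E-box CAGCTG was in 31 (20.3%, 14.2 to 27.5%), against 14.3%, and the E-box CAGATG in 21 (13.7%), against 13.6%. At promoters CAGATG was in 0 of 32 sites (exact interval to 10.9%), against 6.18% of all shared promoter sites. The CTCF word was in 3 (1.96%), against 5.58%, and the NFI word in none. GGGCGG, the GC box bound by Sp factors such as Sp5 and Sp8, was in 15 of 32 promoter sites (46.9%), against 43.2% of all shared promoter sites, and in 24 of 121 body and distal sites (19.8%, 13.1 to 28.1%), against 9.01%. These sites were slightly richer in G and C: the median was 66% at promoters of the 9 genes against 64% over all, and 53.3% against 51.3% elsewhere. Whether base content accounts for the GC box shares was not tested.

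Most of the other pathway genes examined had open promoters too. Of 81 other Wnt pathway and Sp genes, 79 had a shared promoter site, against 65.9% of all protein-coding genes. The list of 81 is partial and was chosen with earlier results of these data known. There were 12 of 13 ligand genes, 15 of 15 receptor genes, 13 of 13 secreted regulators and 13 of 13 cytoplasmic transducers. The rest were 10 of 10 nuclear cofactors, 10 of 10 other feedback genes and 6 of 7 other Sp genes. Wnt8b, a ligand, and Sp6 had no shared promoter site. By mean rank, the highest promoter peaks of their groups, in replicates 1 and 2, were those of the ligand gene Wnt11 (105 and 130), the receptor gene Fzd2 (120 and 141), the secreted inhibitor gene Sfrp2 (105 and 123), the scaffold gene Axin1 (125 and 142), the corepressor gene Tle4 (129 and 145), the receptor-removing ligase gene Znrf3 (115 and 140) and Sp4 (127 and 141). The median number of shared sites was 18 for the 9 genes and 8 for the 81.

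Cores were in 53 of the 809 shared sites of those 81 genes (6.55%), beside the 15.7% of the 9 genes, the 8.26% of the 9 without Nkd1 and Axin2, and the 6.33% (5 of 79) of the 4 TCF/LEF genes alone. The groups ran from 3.45% of sites for nuclear cofactors to 8.77% for the other feedback genes. A few single genes of the pathway, picked out after their values were seen, came close to Nkd1: Znrf3, whose product removes Wnt receptors from the cell surface, had cores in 6 of 15 shared sites (40.0%), the second highest share among the 1033 genes, and the receptor gene Fzd10 had them in 7 of 25 (28.0%) and ranked next. Among genes with fewer sites, where single sites weigh more, shares over 25% were also found at Dkk3 (2 of 6), Notum (1 of 3), Dkk1 (2 of 7) and Gsk3b (3 of 11). The relatives of the feedback genes had too few sites to set a low share apart: Axin1 had cores in 0 of 3, Nkd2 in 0 of 7, Dact1 in 0 of 11 and Dact2 in 2 of 12. Sp9, a close relative of Sp8, had 3 of 27.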

How the data were processed

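DNase-seq peaks and hotspots of 2 libraries of mouse hindbrain were used, called by the authors per library on mm10, per the text beside the files; the aligner and caller, with versions and filters, and the number of reads were not given in the sources used here, so depth and its precision are unknown. The deposited peak height is a signal value, a whole number of at most 149 here, with no stated scaling. The deposited hotspot strength is the −log10 of a false discovery rate, set to 100 for the strongest, and the deposited hotspot score repeats this value in coarser steps and gave no result. The replicates are separate tissue samples per the labels, which give them the same strain-level donor entry.

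Only peaks of the autosomes, X and Y were kept, and repeated entries (32 in replicate 1, 60 in replicate 2) removed. Peaks overlapping by at least 1 bp were joined into sites. Starts were the 41525 protein-coding starts of the GENCODE M21 basic set. A site within 1 kb of a start counted only at that gene or genes. The stretch of a gene is the DNA nearest to it within 100 kb. Cores and other motifs were searched on both strands of the central 150 bp in the GRCm38.p6 sequence; site joining, assignment and search were tested on simulated data. Sequence was read with pysam 0.24.0 in Python 3.11.15; tables were handled with pandas 2.3.3. Shares have exact 95% Clopper-Pearson intervals from scipy 1.17.1, and matplotlib 3.10.9 drew the plots. The members, gene lists and motifs were chosen with earlier results of these data known. Named were every member, its highest site of each class and its sites with most cores, and in each pathway group the gene with the highest promoter and the first without a shared one; Fgfr2, the markers Hoxa2, Hoxb2, Lhx5, Dlx5, Wnt10b, Znrf3, Fzd10, Dkk1, Dkk3, Notum, Gsk3b, Sp9 and the paralogs were named after their values were seen. Alternatives varied the promoter window, distal limit, overlap, height, list length, annotation, hotspot width and core, and left out each library. Some genes of the marker lists are not reported here.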

Additional observations from a re-analysis of the deposited data

How the results depend on the processing

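No paired analysis was possible because the study has 1 group. Each of the 9 genes had a shared promoter site under all alternatives that keep both libraries except 2, and a promoter site in either library taken alone. Under the exceptions, 7 genes did with a promoter window of 500 bp, and 4 did without peaks in hotspots of over 2 kb. Leaving out those peaks takes away wide promoters by construction. The share of all genes was not computed under these 2 settings. Shared promoter sites numbered 19 within 500 bp, 49 within 2500 bp and 7 without those hotspots. Using only peaks above the median height left 38 shared distal sites. The share of sites in both libraries was 30.9% with an overlap of at least 75 bp, 48.9% above the median height and 33.4% without wide hotspots. The same share over all sites was not computed under these settings. Either library taken alone gave 227 to 294 sites, 91 to 128 of them in gene bodies and 91 to 126 distal. The share of sites with a core was 10.2 to 15% in either library alone, against 5.15 to 6.03% of all sites; 24.8% with 75 bp added to each side, against 11.6%; 4.58% for the 8-letter forms CCTTTGAT and CTTTGATC, against 1.03%; and 22.9% for CTTTGA, against 9.55%. Lists of equal length gave 152 shared sites in all. With no read depth and no known scaling of heights, sites found in 1 library alone cannot be told from sites just under the other library's detection limit.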
